A study of Mus musculus with 16 samples.

Results

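Genes of mitosis and of the G2/M phase, the stretch of the cell cycle from the end of DNA replication through cell division, were followed across all 16 libraries. The set was a list of 45 genes given by name. All 45 were found by symbol, out of 26595 features in the table of the CD93 experiment and 36930 in that of the drug experiment, and all 45 passed the filter on low values in both. All are protein-coding in the GENCODE annotation of GRCm38 and lie on 17 chromosomes.

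The libraries came from bone marrow cells of C57BL/6 mice aged 8 weeks, purified by cell sorting and amplified with a low-input kit. LSK cells, named after their lack of lineage markers and their surface proteins Sca-1 and c-Kit, are the marrow fraction that holds blood stem cells, here taken from healthy (naive) mice. Leukemia stem cells (LSCs) came from mice with chronic myeloid leukemia (CML), induced by giving LSK cells that carried a BCR-ABL1-GFP retrovirus to syngeneic BL/6 recipients that had not been irradiated and so kept their own marrow. The groups of the CD93 experiment were naive LSK cells of BL/6 (WT) mice and of CD93-/- (KO) mice, 2 libraries each, and CML LSCs that grew from WT or from KO donor cells, 3 libraries each. The recipients of both kinds of graft were BL/6 mice. In the drug experiment BL/6 mice with CML from BL/6 cells received metoclopramide (MCP) at 10 mg/kg or Veh, and their LSCs gave 3 libraries per treatment. The titles of these 6 samples, which say LSC, were followed, although another label calls them LSK. Because the labels do not say whether replicates came from separate mice, the p-values may measure technical spread only.

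Values are RPKM, reads scaled by gene length and by library total, so levels of different genes can be set side by side within a table but not between both tables, which were normalised apart. The lowest value of each table, 0.003 for CD93 and 0.001 for the drug, stands for no signal. Features above that value numbered 14279 to 14906 in LSK libraries, 5525 to 7956 in WT LSCs, 1230 to 2967 in KO LSCs, 15587 to 16447 in MCP LSCs and 19554 to 20014 in Veh LSCs. Libraries of a group correlated at 0.926 or more in LSK cells and in both drug groups, at 0.669 to 0.728 in WT LSCs and at 0.459 to 0.541 in KO LSCs (Pearson's r across genes, which are not independent replicates). Cd93 itself stood at 5.34 and 22.9 RPKM in WT LSK and at 1.01 and 2.10 in KO LSK libraries. In LSCs it was at the lowest value in WT LSC 1, WT LSC 2, KO LSC 1 and KO LSC 3, at 5.74 in WT LSC 3 and at 44.3 in the library labelled KO LSC 2, which goes against that label. How much of the gene the KO allele lacks is not stated. Counts of called members and of called genes in the cell-cycle lists in comparisons with KO LSCs are therefore also given without the library labelled KO LSC 2. Markers of stem and progenitor cells (Kit, Ly6a, Cd34, Procr, Mecom, Hlf and Meis1) summed to 921 to 1945 RPKM in LSK libraries. They summed to 17.6 to 102 in WT LSCs and to 0.021 to 1.84 in KO LSCs, where 6 or 7 of the 7 were at the lowest value, whereas 8 neutrophil genes summed to 45075 to 137268 RPKM in these 6 LSC libraries and to 4471 to 7904 in LSK. Not all 8 went with the sum. Ngp had signal in every LSK library but was at the lowest value in WT LSC 3 and in each KO LSC library, as was Ltf in KO LSC 3. In the drug experiment none of the 7 stem and progenitor genes was at the lowest value in any library.

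Entry into mitosis is driven by the kinase CDK1 bound to cyclin B, which CDC25 phosphatases switch on, and exit follows when the anaphase-promoting complex (APC/C) with its activator CDC20 marks cyclin B for destruction. Aurora and Polo-like kinases, the kinetochore, the spindle checkpoint and kinesin motors carry the chromosomes through division, and their genes are transcribed together late in the cell cycle. The complex DREAM holds these genes silent in resting cells and B-MYB and FOXM1 switch them on. Most stem cells of healthy marrow rest, whereas progenitors of the same sorted fraction divide, and so the summed level of these genes is widely read as a mark of how many cells of a sample are dividing. In bulk RNA, fewer dividing cells and less mitotic RNA per cell cannot be told apart.

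The promoters show what the listed genes share in sequence. Promoter entries from RefSeq (GRCm38.p6) were matched for 39 of the 45 genes, with 42 start sites. The cell-cycle homology region, the site through which the DREAM complex and B-MYB act, was searched as TTTGAA on both strands and as TTCGAA, which reads the same on both. The CCAAT box, which binds NF-Y, was searched as CCAAT on both strands. None of these words contains another. In the 250 bases before the start, TTTGAA or TTCGAA occurred in 42.9% of the 42 promoters and in 17.1% of all 32851 promoters of the table. Within 100 bases of the start the shares were 23.8% and 6.13%. A CCAAT box occurred in 78.6% against 33.8%, at least 2 in 52.4% against 10.1%, and both motifs together in 38.1% against 6.02%. A match is a description of the letters and not a measured binding site. Of the 45 members 21 had no signal in any KO LSC library, with the motif (Kif11, Kif15, Ube2c and Cdk1 below) or without it in the bases shown (Ccnb1). A link between motif and signal was not tested. Shown here are the 120 bases that end at the start site, 5′ to 3′ on the strand of the gene, with both motifs in capitals. They are given for the 4 genes followed by library throughout (Mki67, Top2a, Cdk1 and Ccnb1) and for 4 members with TTTGAA close to the start.
Mki67, chr7:135716380-135716499, minus strand: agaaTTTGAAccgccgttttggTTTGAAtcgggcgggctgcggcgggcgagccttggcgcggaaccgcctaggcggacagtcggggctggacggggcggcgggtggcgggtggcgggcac
Top2a, chr11:99024190-99024309, minus strand: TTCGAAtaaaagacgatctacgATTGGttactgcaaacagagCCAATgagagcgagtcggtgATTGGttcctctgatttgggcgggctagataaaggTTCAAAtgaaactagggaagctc
Cdk1, chr10:69352913-69353032, minus strand: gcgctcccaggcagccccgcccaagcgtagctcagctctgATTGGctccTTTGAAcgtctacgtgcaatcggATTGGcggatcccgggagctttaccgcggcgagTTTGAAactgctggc
Ccnb1, chr13:100786487-100786606, minus strand: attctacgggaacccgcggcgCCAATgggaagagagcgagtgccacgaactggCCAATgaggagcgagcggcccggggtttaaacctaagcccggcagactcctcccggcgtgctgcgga
Kif11, chr19:37376262-37376381, plus strand: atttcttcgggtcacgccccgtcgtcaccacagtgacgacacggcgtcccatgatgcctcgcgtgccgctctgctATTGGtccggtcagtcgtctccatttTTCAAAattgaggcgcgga
Kif15, chr9:122950961-122951080, plus strand: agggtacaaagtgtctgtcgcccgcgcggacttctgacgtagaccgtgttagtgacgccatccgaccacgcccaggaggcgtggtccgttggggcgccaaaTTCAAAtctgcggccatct
Cdc20, chr4:118437344-118437463, minus strand: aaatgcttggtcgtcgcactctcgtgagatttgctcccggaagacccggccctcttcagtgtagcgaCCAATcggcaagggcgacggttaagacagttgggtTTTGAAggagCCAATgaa
Ube2c, chr2:164769809-164769928, plus strand: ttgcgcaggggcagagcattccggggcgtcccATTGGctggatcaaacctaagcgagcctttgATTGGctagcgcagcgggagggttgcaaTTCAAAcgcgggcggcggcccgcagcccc
In this window Top2a carries 3 CCAAT boxes and both forms of the cell-cycle homology motif, Cdk1 carries that motif at 2 places, and Ccnb1 carries CCAAT boxes but neither form of the motif.

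**Figure D1:**
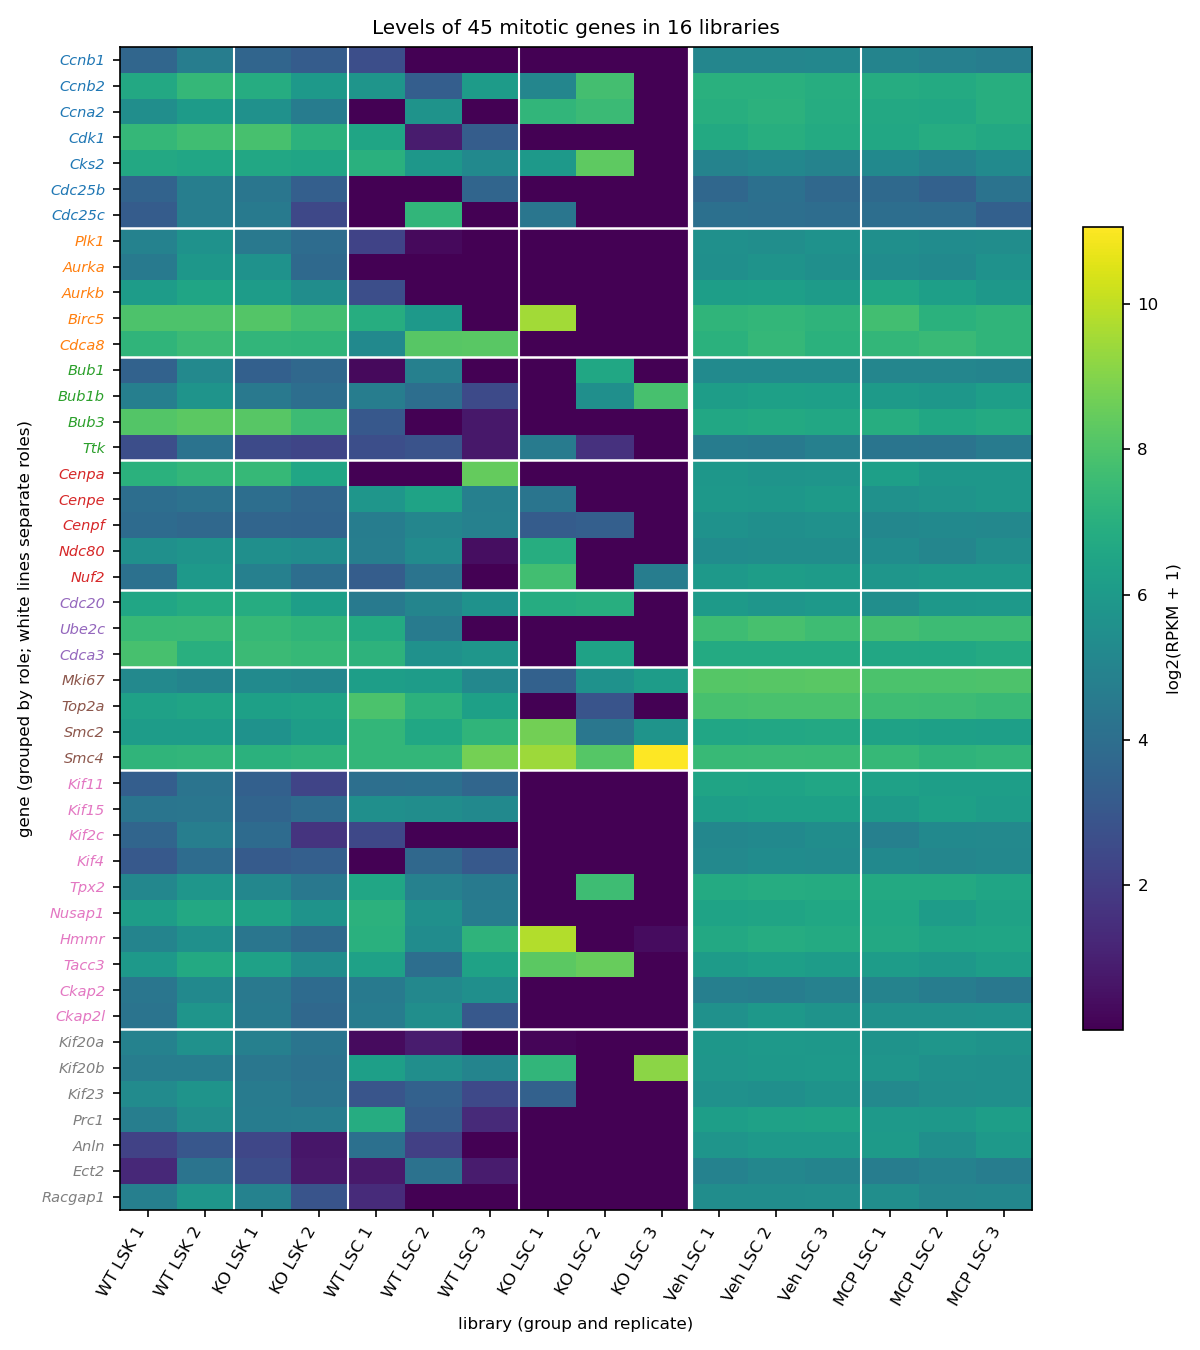
Level of each of the 45 mitotic genes (rows, gene names coloured by role) in each of the 16 libraries (columns) as log2(RPKM + 1), where darkest means no signal. From top to bottom the roles are cyclins and CDK1, mitotic kinases, spindle checkpoint, centromere and kinetochore, APC/C factors, chromosome structure, spindle motors, and central spindle. The thick line separates the experiments, which were normalised apart, and 26 to 38 of the 45 genes are dark in the KO LSC libraries.

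In naive LSK cells every one of the 45 genes had signal in all 4 libraries. The highest mean level in WT LSK was 294.5 RPKM for Bub3, a checkpoint protein that also works outside mitosis, and the lowest was 5.29 for Anln, which builds the contractile ring. In KO LSK the same 2 genes were at the ends, at 239.6 and 2.37 RPKM. The effect of losing CD93 on naive cells was the first comparison. No member passed the test in KO against WT LSK cells (limma with Benjamini-Hochberg adjustment, smallest adjusted p = 0.821, for Racgap1). None reached an unadjusted p under 0.05, beside 1173 of all 13485 features that did. These p-values rest on a spread for each gene fitted over all 10 libraries of the CD93 experiment. The LSC libraries, which correlated less with each other, are part of it, so it is not the spread of LSK replicates alone. Of all 13485 features tested, 0.816% were called higher and 1.02% lower. The estimates were below 0 for 43 of 45 members and for 7753 of all 13485 features. The median log2 difference of the members was -0.48 on the log2(RPKM + 1) scale beside -0.11 over all features. In 17 of the 45 every KO library was below every WT library, as it was for 20.5% of all features, and no member had every KO library above, beside 14% of all features.

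The values by library show how much of that rested on single libraries. Ccnb1, which encodes the cyclin B partner of CDK1, stood at 11.7 and 24.6 RPKM in WT LSK and at 11.3 and 8.42 in KO LSK. WT LSK 2 was the high library and the other 3 lay close together, and the log2 difference was -0.75 with a standard error of 0.86. That standard error draws on all 10 libraries of the experiment, LSCs included, and not on the LSK libraries alone. Cdk1 stood at 166 and 206 RPKM in WT and at 228 and 139 in KO LSK, so its groups overlapped. Mki67, which coats mitotic chromosomes and is the usual proliferation marker, stood at 36.3 and 31.1 in WT and at 38.4 and 33.5 in KO LSK. Top2a, the topoisomerase that untangles sister chromosomes, stood at 80.5 and 87.8 in WT and at 77.4 and 81.6 in KO LSK. For Mki67 and Top2a too the genotypes overlapped, and their 4 values lay within a narrow range. Ect2, the exchange factor that starts cleavage, ran from 1.44 to 17.9 RPKM between both WT libraries and from 5.10 to 0.689 between both KO libraries.

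Pairs of libraries make this plain. WT LSK 2 was above WT LSK 1 in 39 of 45 members, with a median log2 difference of 0.61 beside 0.13 over all tested features. KO LSK 1 was above KO LSK 2 in 38 of 45, with a median of 0.50 beside 0.18. WT LSK 1 was above KO LSK 1 in 22 of 45 with a median of -0.02, and WT LSK 2 above KO LSK 2 in 42 of 45 with a median of 1.27. Across numbers, WT LSK 1 was above KO LSK 2 in 41 of 45 with a median of 0.47 beside 0.12 over all features, and WT LSK 2 above KO LSK 1 in 38 of 45 with a median of 0.455 beside 0.06. The difference between replicates of a genotype was thus as large as the median difference between genotypes. Without WT LSK 2 the median of the genotype comparison was -0.16 and without KO LSK 2 it was -0.22, against -0.87 without WT LSK 1 and -0.76 without KO LSK 1. With 2 libraries a group, depth and cell makeup were not separated from genotype. The 7 stem and progenitor genes summed to 1177 to 1945 RPKM in WT and 921 to 1058 in KO LSK, and the 5 mast cell and basophil genes to 36.9 to 57.9 in WT and 120.1 to 143 in KO LSK, where Fcer1a passed the test as higher. The 6 macrophage genes summed to 935 to 1674 in WT and 2038 to 2604 in KO LSK, and the 6 T and NK cell genes to 703 to 760.4 in WT and 948 to 1024 in KO LSK. Some genes went against their sum. Of the 5 mast cell and basophil genes 1 was below 0, with every KO library below every WT library. Below 0 were also 2 of the 6 macrophage genes and 0 of the 6 T and NK cell genes, and 1 of the 7 stem and progenitor genes was above 0. The part of these in the result was not tested.

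**Figure D2:**
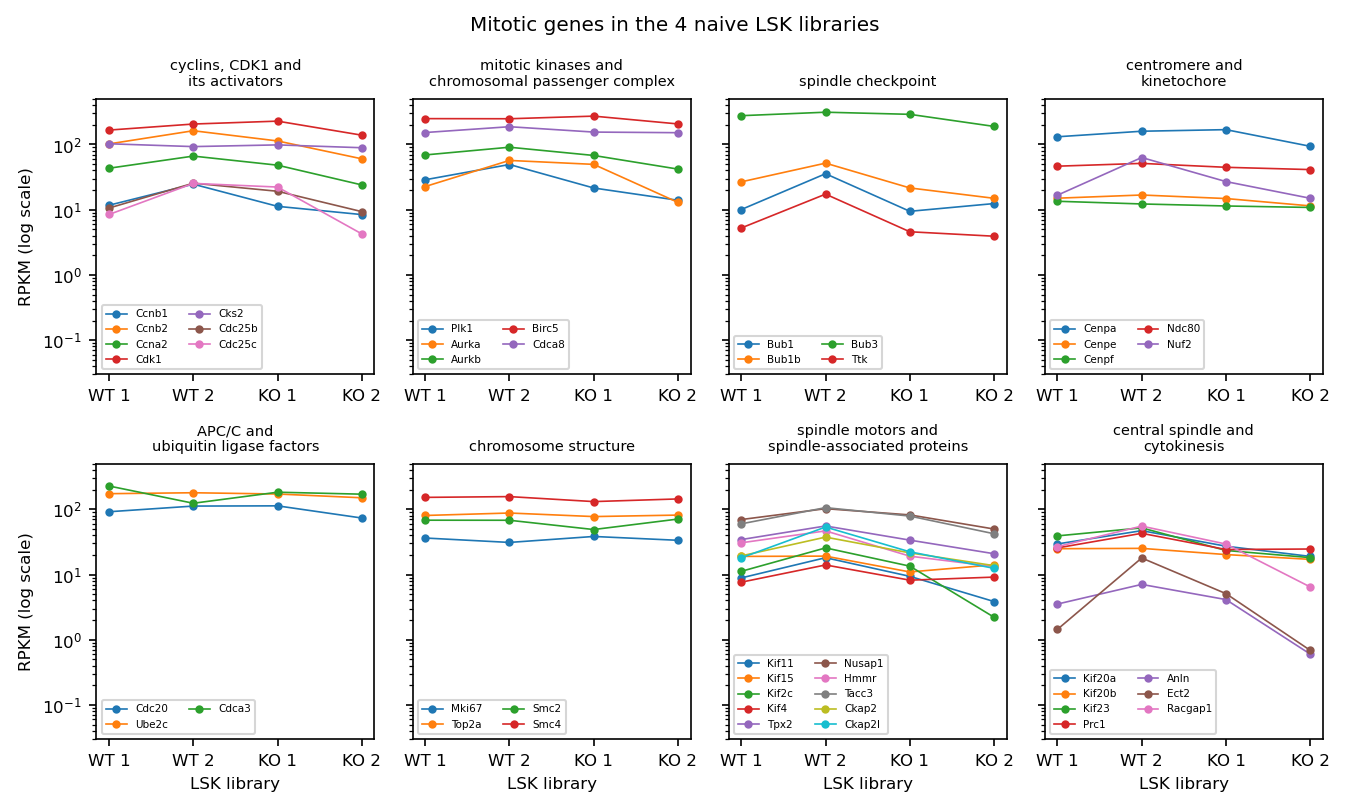
RPKM on a log scale of the mitotic genes in the 4 naive LSK libraries, 1 panel per role, each line a gene whose points are single libraries. Most lines peak at WT LSK 2 and end lowest at KO LSK 2, while the 4 chromosome structure genes run nearly flat; the lines connect libraries only to guide the eye.

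By role, the medians of the log2 difference between KO and WT LSK were -1.07 for the 7 central spindle and cytokinesis genes, -0.89 for the 4 checkpoint genes, -0.66 for the 10 spindle motors and associated proteins, -0.51 for the 7 cyclin and CDK1 genes and -0.48 for the 5 kinases and passenger proteins. They were -0.20 for the 5 centromere and kinetochore genes, -0.14 for the 3 APC/C and ubiquitin ligase factors and -0.12 for the 4 chromosome structure genes. These were the same 4 libraries throughout, and no role held a member that passed. Of the pathway lists beyond the 45, none had a member that passed in this comparison: 56 other mitotic genes had a median of -0.32, 16 APC/C subunits -0.21, 19 tested transcription factors of the G2/M programme -0.02, 32 DNA replication genes -0.23 and 10 G1 cyclins and CDKs 0.20.

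LSCs were compared next with naive LSK cells of the same genotype. These groups also differed in the number of features with signal and in the summed marker genes, as given above. The part of that in the LSC minus LSK differences was not tested. In WT cells 8 of 45 members fell and none rose, beside 42.3% of all features lower and 1.45% higher, so the share of members that fell, 17.8%, was below that of all features. The median member difference was -1.345 on the log2 scale beside -1.94 over all features. After quantile normalisation the member median was 0.62 and that of all features -0.50, so the direction of the set depended on the scaling. In that fit 3 members (Ckap2, Kif11 and Kif15) were called higher and 4 lower, beside 4.63% and 28.7% of all features. The members that fell were Ccnb1, the kinases Plk1, Aurka and Aurkb, the checkpoint gene Bub3, the microtubule-depolymerising kinesin Kif2c, and Kif20a and Racgap1 of the central spindle. Of these Bub3, Aurka, Aurkb and Racgap1 also fell after quantile normalisation. The lists of other cell-cycle genes moved as follows: 16 of 56 other mitotic genes, 7 of 16 APC/C subunits, 12 of 19 transcription factors, 15 of 32 DNA replication genes and 6 of 10 G1 cyclins and CDKs fell, and Ccne2, a cyclin of S-phase entry, was the one that rose. The smallest p-values belonged to Cenpi, Pbk, Gtse1 and Pimreg among other mitotic genes, to Cdc26 among APC/C subunits, to Nfyb, Nfyc, E2f1 and E2f4 among the transcription factors and to Gins2, Cdc6 and Fen1 among replication genes, all lower in WT LSCs.

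Of the 5 kinase and passenger genes, 3 fell. Aurka, the centrosome kinase, stood at 22.6 and 57.0 RPKM in WT LSK and at the lowest value in all 3 WT LSC libraries (adjusted p = 0.000151, limma). Aurkb, the catalytic subunit of the chromosomal passenger complex, stood at 69.1 and 90.8 in LSK and at 5.30 in WT LSC 1, with no signal in the other two (adjusted p = 0.000785). Plk1, which triggers centrosome maturation, stood at 28.8 and 49.3 in LSK and at 3.75, 0.202 and no signal in WT LSCs (adjusted p = 0.000846). For these 3 genes the groups did not overlap. Every WT LSC library was below every WT LSK library in 16 members, beside 56.3% of all features, and above in 6, beside 6.29%. Aurka was the only member without signal in all 6 LSC libraries of this experiment. Birc5, the survivin subunit of the same complex, ran from 119 RPKM to no signal within the 3 WT LSC libraries and did not pass. Cdca8, which encodes borealin of that complex, stood at 37.6, 287 and 301 RPKM in WT LSCs against 153 and 187 in LSK and did not pass either.

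Of the other members that fell, Bub3 stood at 276 and 313 RPKM in WT LSK and at 7.26, no signal and 0.629 in WT LSCs (adjusted p = 0.000331, limma). Kif20a, a kinesin that carries passenger proteins to the spindle midzone, stood at 29.5 and 47.1 in LSK and at 0.243, 0.823 and no signal in LSCs (adjusted p = 1.98e-05). Racgap1, a subunit of centralspindlin at that midzone, stood at 26.8 and 55.3 in LSK and at 1.54 in WT LSC 1 alone (adjusted p = 0.000583). For each of these 3 genes every LSC library lay below every LSK library. Ccnb1 stood at 11.7 and 24.6 in LSK and at 5.26 in WT LSC 1, with no signal in the other two (adjusted p = 0.00978). Kif2c stood at 11.2 and 25.6 in LSK and at 4.335 in WT LSC 1 alone (adjusted p = 0.0156). The calls of Ccnb1 and Kif2c were lost without WT LSK 2 (adjusted p = 0.0871 and 0.125, limma). That left 6 members lower, beside 33.9% of all features. Cdk1 stood at 166 and 206 in LSK and at 89.1, 0.817 and 8.63 in WT LSCs, below LSK in every library, with an adjusted p of 0.0538.

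The chromosome structure genes were the group at the other end, and none of the 4 passed. Mki67 stood at 36.3 and 31.1 RPKM in WT LSK and at 72.1, 67.8 and 34.7 in WT LSCs, and Top2a at 80.5 and 87.8 against 242, 136 and 78.5; in both, WT LSC 3 overlapped LSK. The condensin subunits Smc2 and Smc4 had every WT LSC library above both LSK libraries, Smc2 at 162, 96.7 and 150.3 against 68.1 and 68.0, and Smc4 at 161, 159 and 427 against 152 and 157. The 4 log2 differences lay between 0.52 and 0.96, each smaller than its standard error, with a smallest adjusted p of 0.589. Kif15, a kinesin that helps hold the bipolar spindle, stood at 19.0 and 19.2 in LSK and at 44.2, 42.55 and 36.8 in WT LSCs (adjusted p = 0.0761). It passed as higher when WT LSC 1 was left out (adjusted p = 0.044) and when WT LSC 3 was left out (adjusted p = 0.0315).

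**Figure D3:**
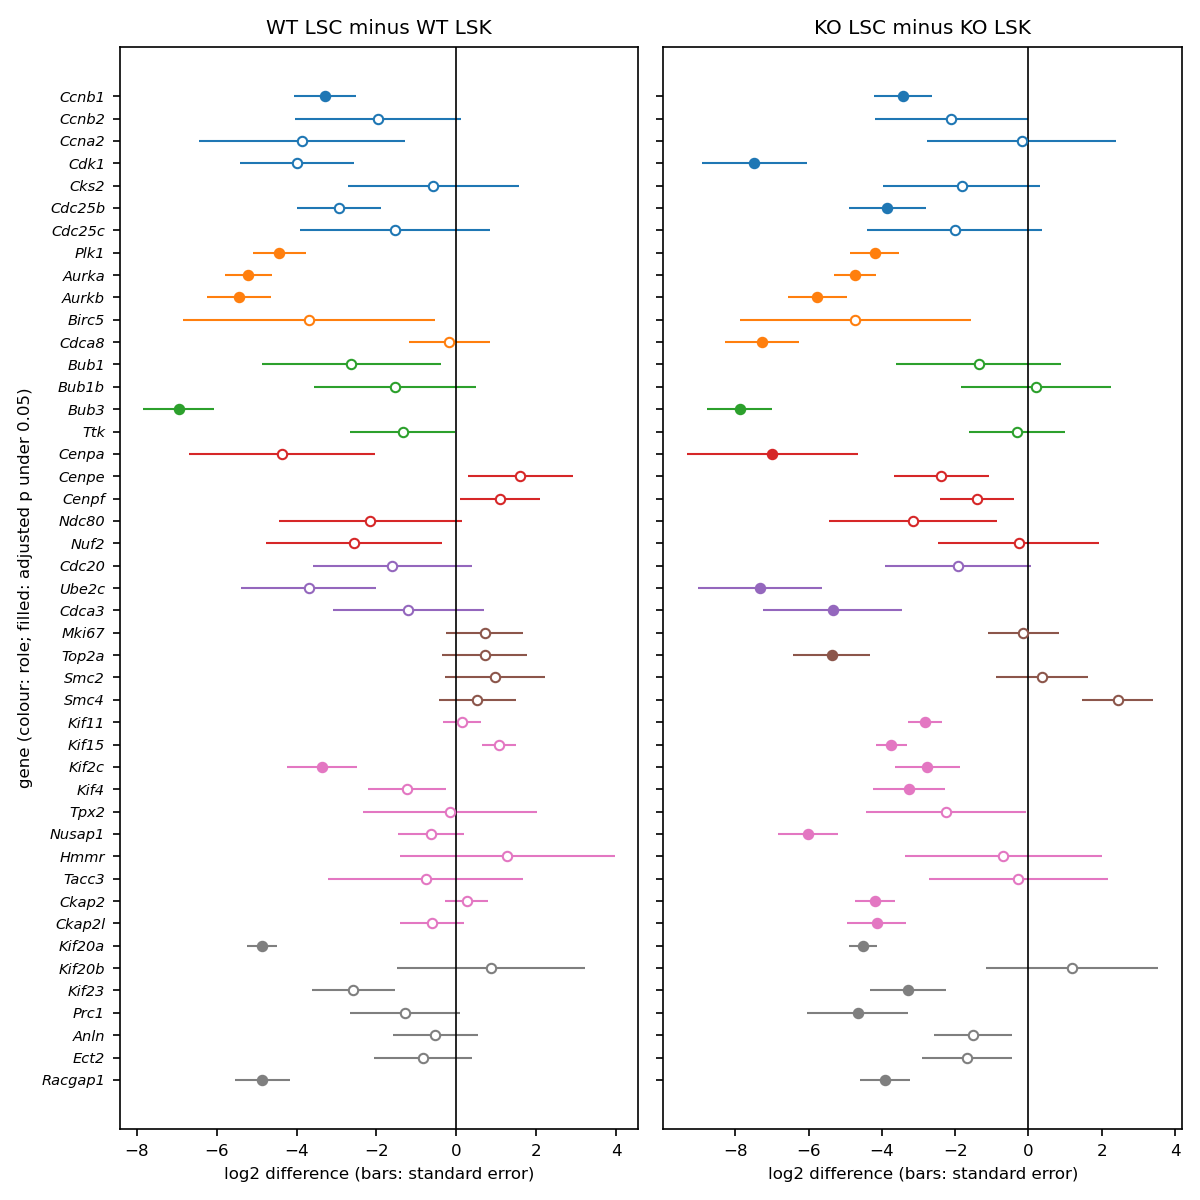
Log2 difference, on the log2(RPKM + 1) scale, between LSCs and naive LSK cells of WT (left) and KO (right) for each of the 45 mitotic genes, with standard errors; colours mark roles in the order of the heat map and filled points passed an adjusted p of 0.05. Filled points, 8 on the left and 23 on the right, all lie below 0, and the spread around most open points is wide.

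In the KO cells 23 of 45 members fell and none rose, beside 61.7% of all features lower and 0.564% higher, so the share of members that fell, 51.1%, was again not above that of all features. The median was -3.15 beside -3.06 over all features. After quantile normalisation 12 were lower and 3 higher, beside 38.3% of all features lower and 1.67% higher. The 3 were Mki67, Smc2 and Smc4, and the medians were -1.07 for members and -1.14 over all features. Without the library labelled KO LSC 2, 21 fell and 2 (Kif20b and Smc4) rose, beside 58.9% of all features lower and 0.698% higher. The lowest count that fell when any 1 library was left out was 16, without KO LSK 1, beside 47.3% of all features. Of the 23, 19 had no signal in any of the 3 KO LSC libraries (the other 4 being Cdca3, Top2a, Kif20a and Kif23). For these 19 the fitted differences depend on the added 1, and only their levels are given. The KO LSC group also adds no spread to the p-values of these 19. They included Cdk1, at 228 and 139 RPKM in KO LSK, Ccnb1 at 11.3 and 8.42, Ube2c, the ubiquitin-conjugating enzyme of the APC/C, at 172 and 150.4, Cdca8 at 155 and 152, Bub3 at 290.0 and 189, and Cenpa, the histone of the centromere, at 169 and 93.9. Their adjusted p-values were 0.00251 for Cdk1, 0.00623 for Ccnb1, 0.00636 for Ube2c, 0.000481 for Cdca8, 0.000149 for Bub3 and 0.0311 for Cenpa (limma). Of the other lists, 36 of 56 other mitotic genes, 12 of 16 APC/C subunits, 17 of 19 transcription factors, 21 of 32 replication genes and 10 of 10 G1 cyclins and CDKs fell, and the APC/C subunit Anapc13 rose. Without the library labelled KO LSC 2 these counts were 37, 11, 16, 21 and 9.

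In the kinase group Aurka stood at 49.6 and 12.9 RPKM in KO LSK (adjusted p = 0.000237, limma), Aurkb at 67.9 and 41.95 (adjusted p = 0.000487) and Plk1 at 21.5 and 13.95 (adjusted p = 0.000964). Among the spindle genes Kif15 stood at 10.96 and 14.1 (adjusted p = 0.000151), Ckap2 at 21.5 and 13.7 (adjusted p = 0.000333), Nusap1 at 82.1 and 49.9 (adjusted p = 0.000432) and Kif11 at 9.38 and 3.855 (adjusted p = 0.00123). Racgap1 stood at 29.4 and 6.45 (adjusted p = 0.0016, limma), Prc1, which bundles the microtubules of the midzone, at 24.2 and 24.6 (adjusted p = 0.019) and Cdc25b, a CDK1-activating phosphatase, at 19.2 and 9.345 (adjusted p = 0.0139). All 10 of these genes had signal in both KO LSK libraries and in no KO LSC library. Kif20a stood at 27.2 and 18.98 in KO LSK and at 0.104 in KO LSC 1 alone (adjusted p = 3.08e-05, limma). Kif23, the kinesin of centralspindlin, stood at 23.4 and 18.2 and at 9.88 in KO LSC 1 alone (adjusted p = 0.0256). Cdca3, a trigger of mitotic entry, stood at 183 and 171 and at 82.7 in the library labelled KO LSC 2 alone (adjusted p = 0.0384). For these 3 genes too every KO LSC library was below both LSK libraries, as for 26 of the 45 members and 75.2% of all features. In 1 member, Smc4, every KO LSC library was above, beside 1.22% of all features. Top2a stood at 77.4 and 81.6 in KO LSK and at 6.29 in the library labelled KO LSC 2 alone (adjusted p = 0.00296, limma). Mki67 stood at 38.4 and 33.5 in KO LSK and at 9.74, 48.7 and 67.9 in KO LSCs, with overlap (adjusted p = 0.901). Of the genes named here, Ccnb1, Cdc25b, Cdca3, Cenpa, Kif20a, Kif23, Prc1, Racgap1 and Top2a missed the threshold after quantile normalisation (adjusted p = 0.0573 to 0.782, limma), and Top2a, Kif23 and Cdca3 also with library weights (adjusted p = 0.281, 0.481 and 0.69). Cenpa also missed the threshold when any 1 of the 7 LSK or KO LSC libraries was left out (adjusted p = 0.0549 to 0.143), and Cdca3 when any 1 library other than the one labelled KO LSC 2 was (adjusted p = 0.0503 to 0.143). Kif23 missed it without KO LSK 1, KO LSK 2, KO LSC 3 or the library labelled KO LSC 2 (adjusted p = 0.0686 to 0.119), Prc1 without KO LSK 1 or KO LSK 2 (adjusted p = 0.0881 and 0.0824), and Cdc25b without KO LSK 1 (adjusted p = 0.098).

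Which members kept any signal differed between LSC libraries. Of the 45, those without signal numbered 6, 8 and 14 in the WT LSC libraries, against 26, 30 and 38 for KO. As shares of the 45 these were 13.3%, 17.8%, 31.1%, 57.8%, 66.7% and 84.4%. Among 9550 features with signal in all 4 LSK libraries and a mean LSK level in the range of the members (3.83 to 267 RPKM), the shares without signal in the same libraries were 37.6%, 47.3%, 57.0%, 78.4%, 84.3% and 92.5%. The share for the members was the lower value in each of the 6 libraries, a difference that was not tested. The features were matched by range only and not by level within it. In LSK libraries the median member stood at 18.2 to 51.9 RPKM, and the median of all features with signal at 11.2 to 15.5. Only Mki67, Smc2 and Smc4 had signal in all 6. Where a member kept signal in a KO LSC library its value could be far above LSK: Smc4 stood at 701, 279 and 2143 RPKM in KO LSCs against 131 and 144 in KO LSK, and Hmmr, which encodes a spindle and hyaluronan-binding protein, at 879 in KO LSC 1, at no signal in the library labelled KO LSC 2 and at 0.310 in KO LSC 3.

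**Figure D4:**
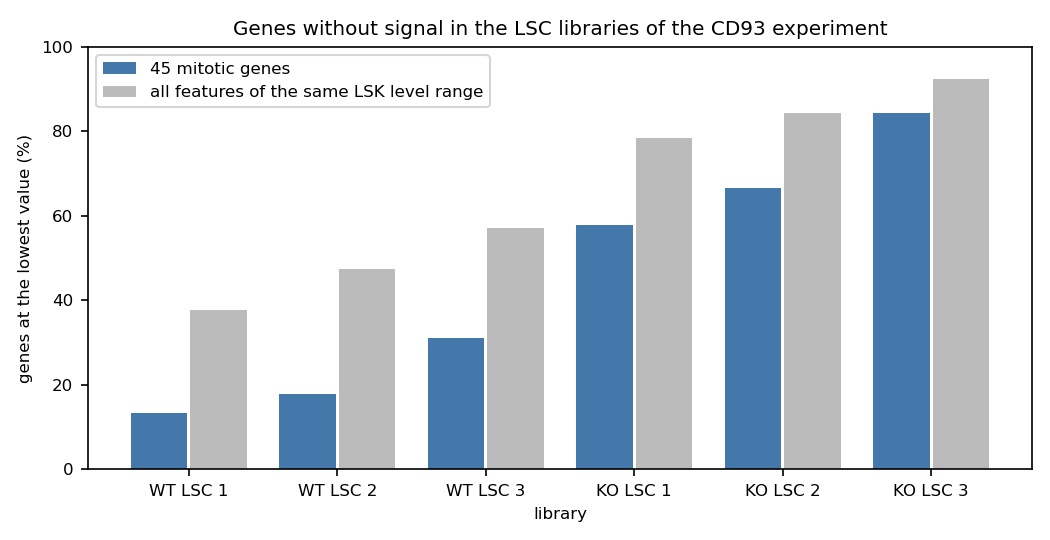
Percentage of genes without signal (bars from 0) in each LSC library of the CD93 experiment, for the 45 mitotic genes (blue) and for all 9550 features whose LSK level lies in the same range (grey). The blue bars rise from 13.3% to 84.4% and the grey bars from 37.6% to 92.5%, the blue being lower in each library.

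The effect of losing CD93 on LSCs was the next comparison. In KO against WT LSCs 7 of 45 members fell (15.6%) and none rose, beside 8.74% of all 13485 features lower and 0.0742% higher. Below 0 were 37 members and 9134 of all 13485 features, and above 0 were 7 and 2101. The median difference was -1.20 beside -0.77 over all features. Which of these medians was lower depended on the features tested: with a mean of at least 5 RPKM they were -1.18 for members and -1.61 for all features, and with the compared groups alone -1.93 and -2.425. With an added 0.1 they were -2.38 and -1.80, and without WT LSC 1 -0.80 and -0.12. The shares lower moved too. They were 7 of 43 members and 13.7% of all features with a mean of at least 5 RPKM, 7 of 34 and 14.2% with the compared groups alone, and 10 of 45 and 15.3% without WT LSC 3. Of the 7 that fell, 5 belonged to the 10 spindle motors and spindle-associated proteins (Kif11, Kif15, Nusap1, Ckap2 and Ckap2l), 1 to the kinase and passenger group (Cdca8) and 1 to chromosome structure (Top2a). None of the 7 cyclin and CDK1 genes, 4 checkpoint genes, 5 centromere and kinetochore genes, 3 APC/C and ubiquitin ligase factors or 7 central spindle genes passed. The 7 calls held without the library labelled KO LSC 2. There 9 members fell (6 spindle genes and 1 each of the kinase, APC/C and chromosome structure groups) beside 8.86% of all features. The 7 calls also held in each other fit that left out 1 library, with 7 to 10 lower beside 6.91% to 15.3% of all features. After quantile normalisation 8 were lower, 6 of the 7 among them, beside 9.45% of all features. Top2a did not pass there (adjusted p = 0.1, limma). Top2a also missed the threshold with library weights (adjusted p = 0.339).

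Of these genes 6 were measured in all WT LSC libraries and had no signal in any KO LSC library. Kif15 stood at 44.2, 42.55 and 36.8 RPKM in WT LSCs (41.2 ± 3.85, SD, n = 3; adjusted p = 0.000498, limma). Kif11, the motor that pushes spindle poles apart, stood at 15.3, 16.2 and 11.4 (adjusted p = 0.000863). These motors were the most even of the 7 across WT LSCs. Ckap2, a spindle-associated protein, stood at 22.1, 34.4 and 44.4 (adjusted p = 0.000613), and its relative Ckap2l at 24.4, 43.7 and 7.31 (adjusted p = 0.00611). Nusap1, which bundles microtubules near chromosomes, stood at 137, 46.5 and 24.03 (adjusted p = 0.00181). Cdca8 stood at 37.6, 287 and 301 (adjusted p = 0.00169, limma). For all 6 genes no fold is given, because the KO LSC group is listed at the lowest value. That group therefore adds no spread to their p-values.

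Top2a stood at 242, 136 and 78.5 RPKM in WT LSCs and had signal in the library labelled KO LSC 2 alone, at 6.29 (adjusted p = 0.00443, limma). No fold is given, because 2 of the 3 KO LSC libraries had no signal. Every KO library was below every WT library, as for 12 of the 45 members and 14.1% of all features, and in none was every KO library above, beside 0.564%. The other 3 genes followed by library did not pass. Mki67 stood at 72.1, 67.8 and 34.7 in WT and at 9.74, 48.7 and 67.9 in KO LSCs, with overlap. Ccnb1 had signal only in WT LSC 1 of these 6 libraries, at 5.26. Cdk1 stood at 89.1, 0.817 and 8.63 in WT LSCs and had no signal in any KO LSC library, with an adjusted p of 0.199 (limma). A gene without signal is common in these KO libraries, which hold 1230 to 2967 features above the lowest value against 5525 to 7956 in WT LSCs, and the part of this in the 7 calls was not tested.

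Other cell-cycle lists gave 5 of 56 other mitotic genes lower (Aspm, Pttg1, Cenph, Sgo1 and Arhgap11a), 0 of 16 APC/C subunits, 2 of 19 transcription factors (Tfdp2 and Lin37), 3 of 10 G1 cyclins and CDKs (Ccne2, Cdk4 and Ccnd2) and 6 of 32 DNA replication genes, and none higher. Pttg1 encodes securin, which guards sister chromosome cohesion, and Aspm a spindle pole protein. Their medians were -1.64, -1.54, -0.68, -2.07 and -1.63, all beside -0.77 over all features. Without the library labelled KO LSC 2 the counts lower were 4, 1, 2, 3 and 5 in the same order. Among 35 oxidative phosphorylation genes, which nearly all cells express, 1 was lower (6 without that library) and the median was -1.94, and KO LSC libraries had 8, 3 and 18 of the 35 without signal against 0 in each WT LSC library.

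Whether the LSC minus LSK difference, here called the leukemia effect, differed between genotypes was tested as an interaction. The interaction is that difference in KO minus that in WT. It passed as lower for 5 of 45 members (Cdca8, Kif11, Kif15, Nusap1 and Ckap2; 11.1%) and as higher for none, beside 5.15% and 0.934% of all features. Kif15 had the smallest adjusted p (0.00802, limma), followed by Ckap2 (0.0161), Cdca8 (0.0283), Nusap1 (0.0359) and Kif11 (0.0414). All 5 are genes with signal in every LSK and WT LSC library and in no KO LSC library. The KO LSC group therefore adds no spread to their p-values. The standard error was 0.60 for Kif15 and 0.77 for Ckap2, beside 3.81 for Hmmr and 4.47 for Birc5, which kept signal in some KO LSC libraries. The count of members that passed was 2 without WT LSK 1, without KO LSK 1 or without KO LSC 3. In these fits 5.05%, 4.63% and 3.25% of all features were lower. The count was 3 without WT LSK 2 or without KO LSK 2, beside 4.61% and 4.63% of all features. It was 8 without WT LSC 3, beside 10.8%. It was 5 without the library labelled KO LSC 2, beside 4.82%, with Kif11 and Nusap1 replaced by Cdca3 and Top2a. It was 3 after quantile normalisation, beside 4.55% of all features lower. With replicate numbers fitted as blocks it was 0, as it was for all 13485 features in either direction. Kif15 and Ckap2 passed in every fit that left out 1 library and after quantile normalisation. Of the genes followed by library, Top2a had an adjusted p of 0.0593, Cdk1 of 0.52, Mki67 of 0.807 and Ccnb1 of 0.965 (limma).

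The drug experiment asked how MCP, a dopamine receptor blocker used against nausea, acted on LSCs. All 45 members had signal in all 6 libraries here. In Veh LSCs the highest means were 290.6 RPKM for Mki67 and 235.2 for Top2a, and the lowest 13.6 for Cdc25b, a CDK1-activating phosphatase; the median of the 45 means was 60.4 in Veh and 59.9 in MCP. No member passed the test in MCP against Veh, beside 1.8% of all 14005 features lower and 0.521% higher. The median log2 difference was -0.15 beside -0.18 over all features, and after quantile normalisation -0.07 beside -0.03. The estimates were below 0 for 39 of 45 members and for 10057 of all 14005 features. Those of the members ranged from -0.42 (Cenpf) to 0.20 (Cenpa). In 13 members every MCP library was below every Veh library and in 1, Cenpa, every one was above, beside 25.6% and 4.91% of all features. An unadjusted p under 0.05 (limma) was reached by 11 members, all lower in MCP, and by 3226 of all 14005 features in either direction.

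Chromosome structure was the one role in which every MCP library was below every Veh library for each member, 4 of 4, beside 25.6% of all features, and it was singled out after these values were seen. Top2a stood at 229, 239 and 237 RPKM in Veh and at 197, 190.1 and 179 in MCP LSCs (log2 difference -0.32 with a standard error of 0.07, adjusted p = 0.0552, limma). Mki67 stood at 283, 289.7 and 299 in Veh and at 246, 242 and 250.1 in MCP (-0.24 with a standard error of 0.06, adjusted p = 0.0778). Smc2 stood at 94.1, 98.6 and 101 in Veh and at 81.3, 77.8 and 74.7 in MCP (-0.33, adjusted p = 0.0681). Smc4 stood at 175, 179 and 175 in Veh and at 169, 147 and 153 in MCP (-0.17, adjusted p = 0.214). In all 4 the MCP libraries were the lower ones, and none passed. Cenpf, which encodes a kinetochore protein and had the largest difference of the 45, stood at 49.3, 44.7 and 48.0 in Veh and at 33.5, 37.3 and 34.5 in MCP (adjusted p = 0.0647).

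None of the cyclin and kinase genes passed. Ccnb1 stood at 33.2, 33.2 and 33.5 RPKM in Veh and at 30.6, 27.0 and 25.0 in MCP (-0.27 with a standard error of 0.11, adjusted p = 0.198, limma). Cdk1 stood at 106, 123 and 109 in Veh and at 98.7, 114 and 102 in MCP, with overlap (-0.10 with a standard error of 0.09). The Veh values of Ccnb1 were nearly identical while the MCP values ran over a wider range. Plk1, Aurka, Aurkb, Birc5 and Cdca8 lay between -0.13 and 0.18, Aurkb, Birc5 and Cdca8 being above 0. The other members above 0 were Cks2, a small CDK-binding protein, at 0.14, Bub3 at 0.08 and Cenpa at 0.20. By role the medians were -0.28 for chromosome structure, -0.215 for central spindle and cytokinesis, -0.21 for the checkpoint, -0.135 for spindle motors, -0.14 for cyclins, -0.13 for centromere and kinetochore, -0.09 for APC/C and ubiquitin ligase factors and 0.04 for kinases and passenger proteins.

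**Figure D5:**
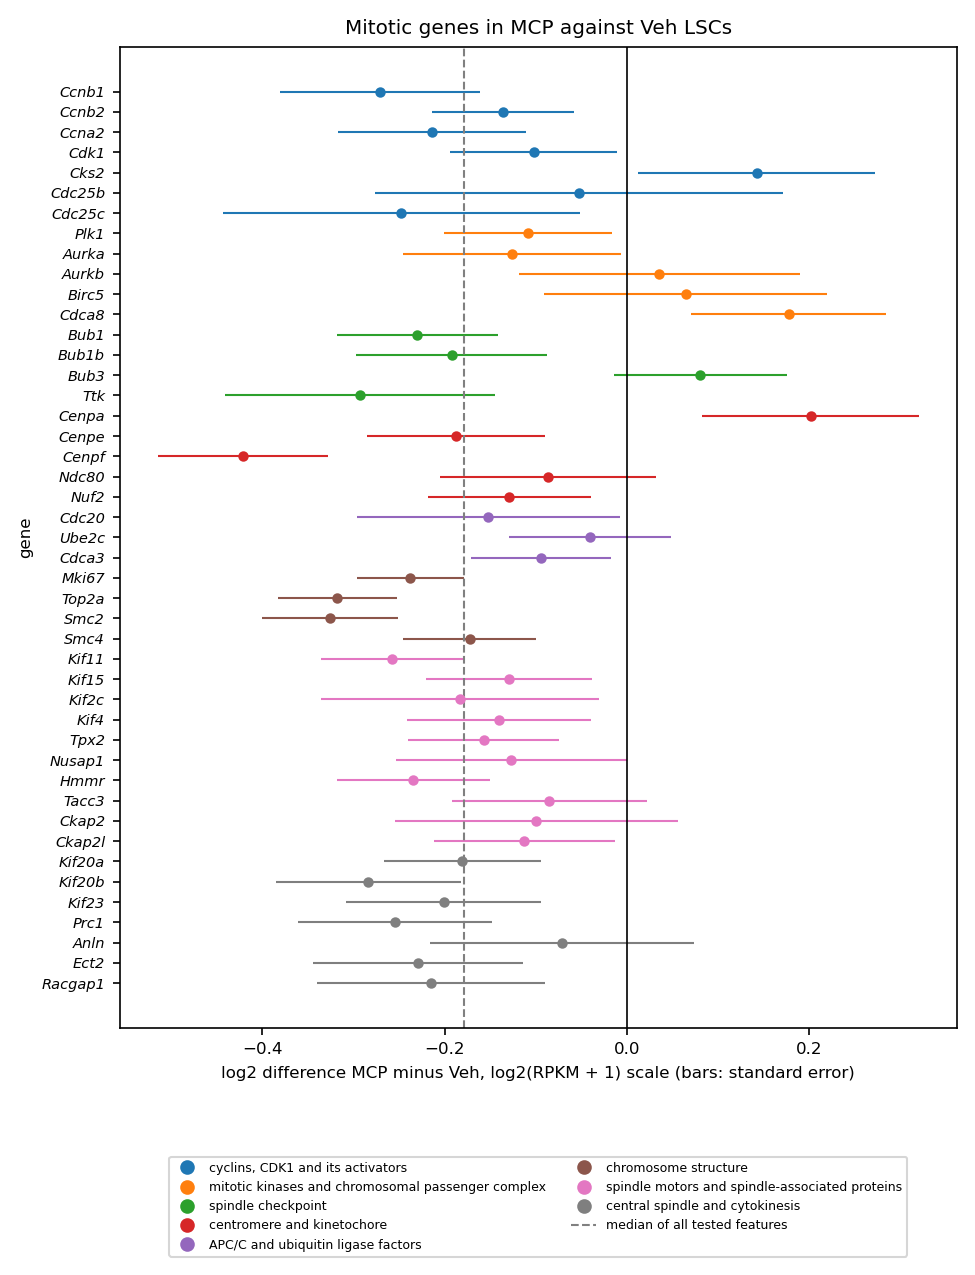
Log2 difference between MCP and Veh LSCs, on the log2(RPKM + 1) scale, for each of the 45 mitotic genes with its standard error, coloured by role; the dashed line is the median of all tested features at -0.18. The points lie between -0.42 and 0.20 on both sides of the dashed line, and none passed the test.

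Several measured features moved with these small differences. Exonic length was one: Spearman's rho of length with the log2 difference was -0.43 across the 45 genes and -0.18 across 11987 features, a description of genes that share the same 6 libraries. In the shortest tercile of length (up to 2961 bases) the median was -0.10 for 8 members and -0.08 for all features, in the middle tercile -0.18 for 22 members and -0.18 for all, and in the longest (above 5570 bases) -0.20 for 15 members and -0.25 for all. The number of features above the lowest value was another, being lower in MCP than in Veh libraries. Members whose promoter held TTTGAA or TTCGAA in the 250 bases before the start had a median difference of -0.17 (16 genes) and those without of -0.13 (23 genes). Cell-type markers differed as well: the 7 stem and progenitor genes summed to 299.95 to 313 RPKM in Veh and 197 to 206 in MCP, with Meis1, Hlf and Cd34 lower. The 8 neutrophil genes summed to 2903 to 3129.9 in Veh and 4388 to 4521 in MCP, with Elane, Ctsg, Mpo and S100a8 higher. Of these 8 genes Ltf (-1.04, adjusted p = 0.117, limma) and Ngp (-0.37, adjusted p = 0.487) were below 0, Ltf with every MCP library below every Veh library. The 5 mast cell and basophil genes summed to 146 to 161 in Veh and 25.7 to 35.4 in MCP, with Cpa3, Ms4a2 and Mcpt8 lower. The part of length, number of features with signal, depth (which was not established) and cell makeup in the members' values was not tested.

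Among the regulators of the programme, 1 of 20 transcription factors fell in MCP LSCs, beside 1.8% of all features. E2f7, a repressor of E2F targets, stood at 12.4 ± 2.03 RPKM in Veh and 5.57 ± 0.596 in MCP (SD, n = 3 each; log2 difference -1.025 with a standard error of 0.19, adjusted p = 0.0423, limma). Its close relative E2f8 had a difference of -0.41 (adjusted p = 0.0719). Lower calls over all features went from 252 to 44, 60 and 22 without Veh LSC 1, Veh LSC 2 and Veh LSC 3. The call of E2f7 was not followed in those fits. None of the 56 other mitotic genes passed, with a median of -0.14 and the smallest adjusted p, 0.0703, for Sass6, a centriole assembly gene; Ncapd2, Arhgap11a and Ncapg2 followed. None of 16 APC/C subunits (median -0.14), 10 G1 cyclins and CDKs (-0.26) or 32 DNA replication genes (-0.075) passed; Cdc27, Ccnd3 and Lig1 had the smallest adjusted p of these lists, at 0.149, 0.111 and 0.0754. Of the oxidative phosphorylation genes 4 of 35 rose (Cox6c, Ndufb9, Cox7a2 and Atp5l), beside 0.521% of all features, with a list median of 0.20.

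Some values rest on genes whose reads could be shared. The labels do not say whether reads were counted by strand. Exons of 13 members overlap exons of a gene on the opposite strand in GENCODE, among them Cdca8, Nusap1, Ckap2l, Plk1 and Kif20a, and Top2a overlaps a small gene on its own strand. Ccnb1, Ccnb2 and Kif4 have named pseudogenes. Levels of these genes are uncertain to that extent.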

How the data were processed

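RNA of 16 sorted bone marrow samples (RNeasy Micro, SMART-Seq v4, per the labels' protocols) was available as 2 deposited tables of normalised expression per feature, 1 for each experiment. The values behave as RPKM as deposited by the authors. That unit was inferred from the values, since no header names it. The submitters' processing notes name the build GRCm38 (mm10), and no source used here names the aligner, counter or annotation. Column totals were 828690 to 1360625. RPKM keep no read totals: multiples of 1 read were sought in low values of single-exon genes, several estimators were tried, and at most 76.9% of values per library came within 0.1 of a whole number, so the depth of each library was not established, no count test was run and no counting interval is given.

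Values were taken as log2(RPKM + 1), so a fold on this scale understates low genes. Features that reached 1 RPKM in 2 or more libraries (13485 and 14005) were fitted with limma 3.58.1 in R 4.3.3 (empirical Bayes with a trend, 10 libraries in one model and 6 in the other), and p-values were adjusted over all of them by the Benjamini-Hochberg method, with calls at 0.05. Python 3.11.15 with pandas 2.3.3 and GENCODE M21 served for the rest. The fit was tested on simulated data. Alternatives were quantile normalisation, no filter, a mean of at least 5 RPKM, an added 0.1, the replicate number as a block, the compared groups alone and leaving out each library. Library weights and a crossed block were added after seeing the data.

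The members and lists were chosen with earlier results of these data known. Values by library are given for Mki67, Top2a, Ccnb1 and Cdk1 and, in each role, for up to 4 called members with the smallest p, and up to 4 genes of each other list are named by p. Other members and genes named with values were chosen after their values were seen. Of the list entries, 249 matched by symbol and 8 by synonym in the CD93 table, with 1 not listed, and 253 and 5 in the drug table. 1 gene of the stem and progenitor list is not reported here.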

Additional observations from a re-analysis of the deposited data

Results flagged for a closer look

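For 5 mitotic genes the leukemia effect differed between genotypes by a test of the difference itself, LSC minus LSK in KO minus the same in WT (limma, Benjamini-Hochberg adjustment). The differences on the log2(RPKM + 1) scale were -7.08 for Cdca8, -5.38 for Nusap1, -4.81 for Kif15, -4.43 for Ckap2 and -2.96 for Kif11. All 5 genes had signal in each LSK and WT LSC library and in no KO LSC library, so the sizes depend on the added 1. The KO LSC group also adds no spread to the p-values of these genes. With the replicate number as a block none of the 5 passed (adjusted p = 0.086, 0.102, 0.0668, 0.0796 and 0.146 in the same order, limma). None of all 13485 features passed in that fit. No pairing by these numbers was seen, but groups of 2 or 3 libraries cannot exclude one. KO LSC libraries had 26, 30 and 38 of the 45 mitotic genes without signal, and the part of this in the differences was not tested.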

How the results depend on the processing

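Quantile normalisation gave 3 members higher and 4 lower in WT LSC against LSK, beside 4.63% and 28.7% of all features. In KO LSC against KO LSK it gave 3 higher and 12 lower, beside 1.67% and 38.3%. In the difference of the leukemia effects it gave 3 lower, beside 4.55%. Library weights also gave 3 there, beside 3.08%, and the replicate block 0. The cause was not tested. Leaving out 1 library at a time gave 0 to 1 higher in WT LSC against LSK, 0 to 2 higher and 16 to 24 lower in KO LSC against KO LSK, 7 to 10 lower in KO against WT LSC and 2 to 8 lower in the difference of effects. Over all features these shares were 0.575% to 2.4%, 0.261% to 1.02% and 47.3% to 64.2%, 6.91% to 15.3%, and 3.25% to 10.8%. Members called in KO against WT LSK and in MCP against Veh stayed at 0 in each alternative run. Some gene values that did not pass changed sign, and that of Ccnb1 between KO and WT LSC became 0. With 1 library left out, the log2 difference between KO and WT LSC ranged from -1.321 to 0.00 for Ccnb1 and from -1.287 to 0.054 for Mki67, that between KO and WT LSK from -0.411 to 0.30 for Cdk1 and from -0.018 to 0.20 for Mki67, that between KO LSC and KO LSK from -0.673 to 0.668 for Mki67, and the difference of effects from -0.638 to 0.748 for Ccnb1. After quantile normalisation Mki67 gave 1.252 in KO against WT LSC, 3.228 in KO LSC against KO LSK, where it passed, and 0.904 in the difference of effects, and Top2a gave 0.029 in KO against WT LSK. With library weights Mki67 gave 0.113 in KO LSC against KO LSK. Over all features, the calls in KO against WT LSK (110 higher, 137 lower) became 0 and 0 with the compared groups alone and 1 and 0 with a mean of at least 5 RPKM. Those in MCP against Veh (73 and 252) became 3 and 22 without Veh LSC 3 and 2 and 44 without Veh LSC 1. Same-numbered libraries did not deviate together (correlation -0.282 in LSK, -0.023 to 0.003 in LSC, -0.008 to 0.014 in the drug experiment). These correlations cannot exclude a pairing. Groups have 2 or 3 libraries, and with 2 the deviations within a group mirror each other. The replicate block gave 7 members lower in KO against WT LSC, 9 in WT LSC against LSK and 20 in KO LSC against KO LSK. Beside these, 7.54%, 38.2% and 56.8% of all features were lower. Over all features it gave 7 higher and 32 lower in MCP against Veh. In KO against WT LSK it gave 5 and 0, as did the crossed pairing.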
